A study of Mus musculus with 6 samples.

Results

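The insulin-like growth factor (IGF) system was examined here through 10 genes of its ligand, receptors and binding proteins, namely Igf1, Igf1r, Insr and Igfbp1 to Igfbp7. The genes were chosen by name and by no measured value, but the group was picked with earlier results of these data known. Each gene was represented by the array probe set that names only that gene, and for Insr, which has 2 of them, by the one with the higher mean over the 6 arrays. All 10 had such a probe set, out of 19938 genes that did. The RNA came from neurospheres, free-floating spheres of neural stem/progenitor cells, grown from cells of the lateral ventricle wall, taken from CD1 mice aged 4 to 6 weeks. CD1 is an outbred strain. In 3 empty vector control samples the cells carried a retroviral vector for eGFP alone, and in 3 Bmi1 overexpression samples the vector that the labels call pCMMP-Bmi1, which expresses Bmi1 together with eGFP. The study's text names FLAG-tagged Bmi1 for the array samples, and the labels mention no tag. Cells of both groups were sorted on eGFP and plated at clonal density, 2000 cells per well. Medium of both groups contained insulin at 20 µg/mL besides EGF and FGF, so that a ligand of the insulin receptor was present in every culture. The design text calls the 3 samples of a group independent cultures. The sample labels do not tie them to separate mice, so the p-values rest on a spread between samples that may be technical.

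IGF-I and IGF-II are secreted growth factors that act through the receptor tyrosine kinase IGF1R, and insulin acts mainly through the closely related insulin receptor. In the brain the pathway promotes survival, growth and proliferation of neural cells, and neurosphere media are usually supplemented with insulin for this reason. IGFBP-1 to IGFBP-6 are secreted proteins that bind IGFs with high affinity and can hold them from the receptor or carry them to it, and proteases release the ligand by cleaving them. IGFBP-7 is a related secreted protein with low affinity for IGFs. BMI-1 is a component of Polycomb repressive complexes, which silence genes through chromatin modification.

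Of the 10 genes, 4 fell in Bmi1-overexpressing neurospheres and none rose. Igfbp4 fell 3.07-fold, Igfbp3 fell 1.94-fold, Igfbp2 fell 1.54-fold and the receptor gene Igf1r fell 1.30-fold. A gene is said to fall or rise where limma, a linear model fitted to all 35557 probe sets, gave an adjusted p under 0.05. By this rule 4.37% of the 19938 genes fell and 2.98% rose, and over all probe sets 3.46% fell and 2.23% rose, 5.7% together. These shares include many dim probe sets. Among the 15149 probe sets with a mean of at least 5, fitted alone, 1880 (12.4%) fell and 1544 rose. The same 4 members fell in that fit, and Igf1, Igfbp1 and Igfbp6 were too dim to be included. With arrays centred on their medians 1467 probe sets fell and 593 rose, in place of 1231 and 794. In RNA of whole cultures, fewer cells of a type and less RNA per cell cannot be told apart. The ligand gene Igf1, the insulin receptor gene Insr and 4 binding protein genes did not pass the test. At an unadjusted limma p under 0.05, 6 of the 10 genes were lower and 0 higher, where 11.9% of all genes (9.91% of probe sets) were lower and 10.8% (9.96%) higher. One of the genes without a call, Igfbp5, was low on 2 Bmi1 arrays and high on the third. The median log2 difference (Bmi1 overexpression minus empty vector) of the 10 genes was -0.38, beside 0.01 for all genes. For 7 of the 10 genes every Bmi1 array lay below every empty vector array, and for none above. The groups were separated downward in this way for 15.9% of all genes and 12.9% of all probe sets, and upward for 15.3% and 13.8%.

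**Figure D1:**
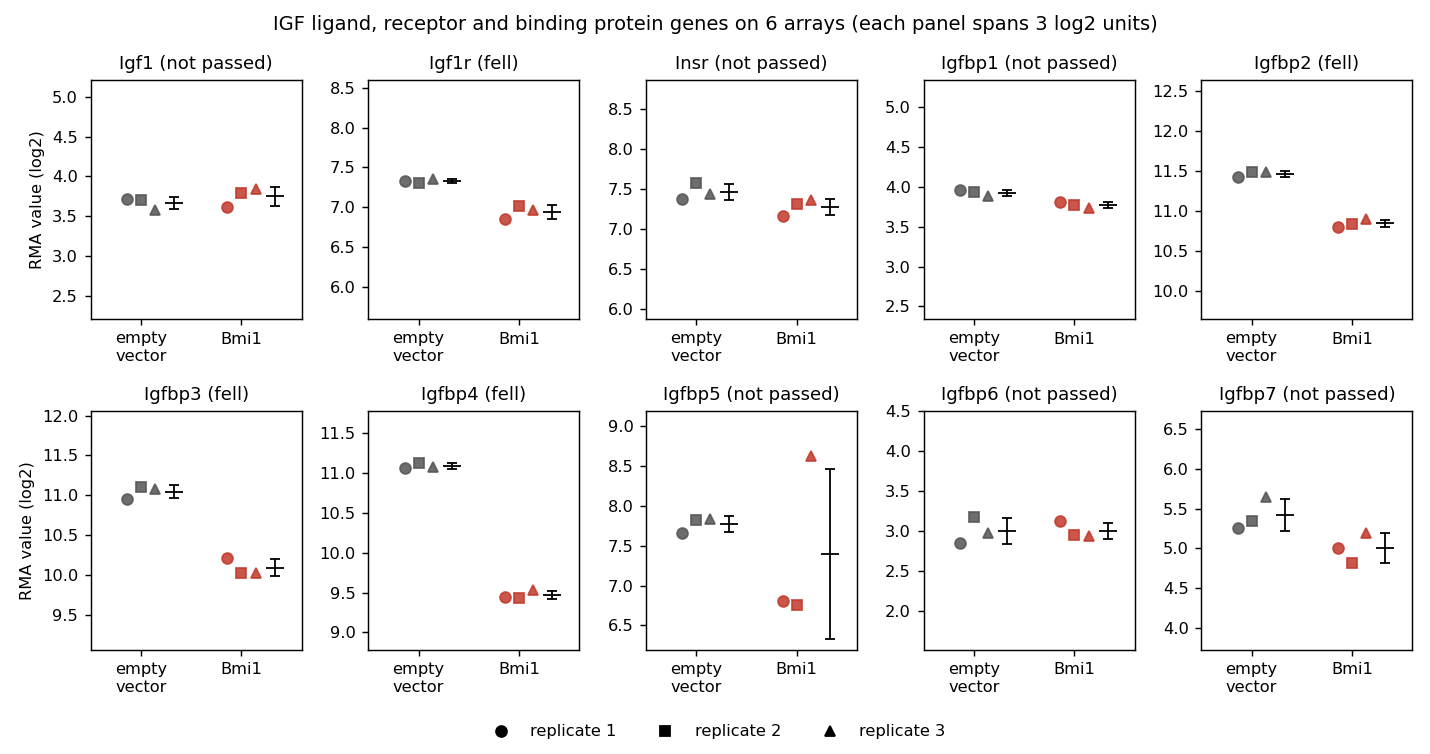
RMA values on the log2 scale (y axis, 3 units per panel) of the 10 genes in the empty vector (grey) and Bmi1 (red) samples, 1 point per array with replicates 1 to 3 as circle, square and triangle, and the mean drawn as a bar with its SD. Igfbp2, Igfbp3, Igfbp4 and Igf1r lie lower on every Bmi1 array, and Igfbp5 lies at 8.63 on Bmi1 replicate 3 against 6.81 and 6.76 on the other Bmi1 arrays.

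The 4 genes that fell have RefSeq promoter windows with more CpG, a dinucleotide depleted from most of the mammalian genome, than the median window. The windows are shown because these members moved together. They run from 250 bases before to 50 bases after an annotated start (GRCm38.p6), are written 5′ to 3′ along the gene, and carry each CpG in capitals.
Igf1r, chr7:67952007-67952306, + strand: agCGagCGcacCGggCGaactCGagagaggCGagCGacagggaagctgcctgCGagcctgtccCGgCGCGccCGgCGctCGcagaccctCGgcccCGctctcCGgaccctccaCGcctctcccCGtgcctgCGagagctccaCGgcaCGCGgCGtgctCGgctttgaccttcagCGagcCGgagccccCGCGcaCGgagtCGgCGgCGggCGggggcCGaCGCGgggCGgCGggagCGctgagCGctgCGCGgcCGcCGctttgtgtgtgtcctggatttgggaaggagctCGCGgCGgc
Igfbp2, chr1:72824230-72824529, + strand: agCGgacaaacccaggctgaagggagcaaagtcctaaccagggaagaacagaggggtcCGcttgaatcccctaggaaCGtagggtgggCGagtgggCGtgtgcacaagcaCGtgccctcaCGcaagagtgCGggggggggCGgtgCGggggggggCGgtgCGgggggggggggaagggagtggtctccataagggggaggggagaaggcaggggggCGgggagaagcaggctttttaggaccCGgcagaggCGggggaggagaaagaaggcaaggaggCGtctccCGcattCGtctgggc
Igfbp3, chr11:7213874-7214173, - strand: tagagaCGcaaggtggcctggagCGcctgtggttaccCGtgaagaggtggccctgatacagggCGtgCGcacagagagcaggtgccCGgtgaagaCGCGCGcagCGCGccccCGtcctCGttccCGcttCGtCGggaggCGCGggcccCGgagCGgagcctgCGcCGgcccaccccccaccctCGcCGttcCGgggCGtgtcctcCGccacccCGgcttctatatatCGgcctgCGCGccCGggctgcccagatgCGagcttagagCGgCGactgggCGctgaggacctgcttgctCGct
Igfbp4, chr11:99040994-99041293, + strand: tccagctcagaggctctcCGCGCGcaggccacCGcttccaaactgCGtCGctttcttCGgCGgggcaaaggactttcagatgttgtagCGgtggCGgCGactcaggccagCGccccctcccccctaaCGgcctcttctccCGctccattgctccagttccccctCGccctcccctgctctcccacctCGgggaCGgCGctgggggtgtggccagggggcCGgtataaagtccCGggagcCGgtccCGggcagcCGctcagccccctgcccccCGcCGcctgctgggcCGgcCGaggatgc
The Igf1r window held 48 CpG, a number reached by 1.22% of 32851 mouse promoter windows of 300 bases. The Igfbp3 window held 37 (reached by 5.58%), the Igfbp4 window 27 (15.5%) and the Igfbp2 window 18 (29.7%). A second annotated window of Igfbp2 held 14. Of the genes that did not pass the test, Igfbp7 had 33 CpG, whereas Igfbp5 had 10, Igfbp1 and Igfbp6 had 8 each and Igf1 had 6. The median of all windows was 7, so that Igfbp7, Igfbp5, Igfbp1 and Igfbp6, which were not called, lay above it too. TATAAA, searched on both strands, occurred in the windows of Igfbp4 and Igfbp6 and in 13.6% of all windows. GGGCGG, the GC box, searched on both strands, occurred in those of Igf1r, Igfbp2 and Igfbp7 and in 35.7% of all windows. Insr had no entry. These matches describe sequence only. Binding at these windows was not measured in the data used here.

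The arrays were checked before the genes were compared. The probe set of Bmi1 itself read 7.70, 8.40 and 8.31 in controls and 9.18, 8.36 and 8.42 in Bmi1 samples, a log2 difference of 0.52 that missed the threshold (limma adjusted p = 0.38). The targeted gene therefore did not separate the groups on the arrays. For all 6 arrays 1 label field, the source, contradicts the group given by the title, transduction and genotype fields, which were followed here. Correlations between arrays were 0.991 to 0.993 within groups and 0.985 to 0.987 between them. Bmi1 replicate 3 stood apart in single genes. On it 20 genes read more than 1 log2 unit above both other arrays of the group, against 0 or 1 on each of the other 5 arrays, and Igfbp5 was among the 20. Results are therefore also given without that array. All 10 listed neural stem and progenitor markers had means above the array medians of 4.37 to 4.45, from 4.65 for Prom1, which was below them in controls at 3.86, to 12.26 for Vim. No detection calls are part of the table.

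Igf1, which encodes IGF-I, was dim on all arrays and did not differ detectably. It read 3.71, 3.71 and 3.58 with the empty vector and 3.61, 3.79 and 3.84 with Bmi1. The groups overlapped, and all 6 values lay below the array medians. The log2 difference was 0.08 (95% confidence interval -0.13 to 0.30, limma adjusted p = 0.67). Without detection calls it cannot be said whether the probe set was above background.

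Igf1r, the receptor tyrosine kinase for both IGFs, was slightly lower with Bmi1. It read 7.33, 7.30 and 7.35 with the empty vector and 6.85, 7.02 and 6.97 with Bmi1. A gap of 0.29 separated the groups. The mean went from 7.33 ± 0.03 to 6.94 ± 0.09 (SD, n = 3 each), a change of -0.38 ± 0.07 (log2 scale, SE, limma adjusted p = 0.034). Each of the 6 fits that omitted 1 array lost this call (limma adjusted p = 0.066 to 0.12), at log2 differences of -0.42 to -0.33.
Insr, the insulin receptor gene, gave no call. Its brighter probe set read 7.38, 7.58 and 7.44 with the empty vector and 7.17, 7.31 and 7.36 with Bmi1, so that the groups just failed to overlap. The log2 difference was -0.18 (95% confidence interval -0.40 to 0.03, limma adjusted p = 0.32). Its other probe set overlapped between the groups, with a log2 difference of -0.08 (95% confidence interval -0.36 to 0.19). The probe sets do not tell the splice forms of the receptor apart.

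Igfbp4 had the largest fall of the 10 genes. Its protein binds both IGFs and is best known for inhibiting their action until it is cleaved by the protease PAPP-A. Igfbp4 read 11.06, 11.13 and 11.07 with the empty vector and 9.45, 9.44 and 9.53 with Bmi1. The arrays of a group lay within 0.10 of each other, and the groups were 1.54 apart at their nearest values. The mean went from 11.09 ± 0.04 to 9.47 ± 0.05 (SD, n = 3 each), a change of -1.62 ± 0.07 (log2 scale, SE, limma adjusted p = 3.5e-04). Ordered by p-value, Igfbp4 was number 15 of the 35557 probe sets. It was the only member to fall by 1 or more on the log2 scale, as 0.833% of the 19938 genes and 0.931% of all probe sets did. With single arrays left out, its log2 difference was -1.65 to -1.60 and the call held in 6 of 6 fits.
Igfbp3 encodes the main IGF carrier of serum, which also has actions apart from IGF binding. It read 10.95, 11.10 and 11.08 with the empty vector and 10.21, 10.03 and 10.03 with Bmi1. All Bmi1 values lay below the lowest control value by 0.74 or more. The mean went from 11.05 ± 0.08 to 10.09 ± 0.11 (SD, n = 3 each), a change of -0.96 ± 0.08 (log2 scale, SE, limma adjusted p = 0.0026).
Igfbp2, whose product is the prominent IGF-binding protein of the developing brain and of cerebrospinal fluid, read 11.42, 11.48 and 11.49 with the empty vector and 10.80, 10.83 and 10.89 with Bmi1. Again the arrays within a group lay close together and the groups did not overlap. The mean went from 11.47 ± 0.04 to 10.84 ± 0.05 (SD, n = 3 each), a change of -0.62 ± 0.06 (log2 scale, SE, limma adjusted p = 0.0046). The calls of Igfbp2 and Igfbp3 held in 6 of 6 fits with 1 array left out, with limma adjusted p up to 0.029 and 0.018. An exact permutation test (two-sided) with 3 arrays against 3 gives p = 0.1 at the least. This value was reached by Igf1r, Insr, Igfbp1, Igfbp2, Igfbp3, Igfbp4 and Igfbp7. Any gene whose groups do not overlap reaches it, as 15.9% of all genes did downward and 15.3% upward. It therefore adds nothing to the count of genes without overlap.

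Igfbp5 did not follow the other bright binding protein genes on every array. Its protein binds IGFs and extracellular matrix, and the gene is expressed in many neural and mesenchymal cells. Igfbp5 read 7.66, 7.82 and 7.83 with the empty vector and 6.81, 6.76 and 8.63 with Bmi1. Bmi1 replicates 1 and 2 were lower than all controls, and replicate 3 was higher than all controls. Over all arrays the mean went from 7.77 ± 0.10 to 7.40 ± 1.06 (SD, n = 3 each) and the log2 difference of -0.37 did not pass (95% confidence interval -1.57 to 0.82, limma adjusted p = 0.75). Without Bmi1 replicate 3 the log2 difference was -0.99 (limma adjusted p = 0.011), a 1.98-fold fall. In that fit Igfbp2, Igfbp3, Igfbp4 and Igfbp5 fell, beside 2.31% of all probe sets. Bmi1 replicate 3 was set aside because genes read high on it, Igfbp5 among them. The call of Igfbp5 in that fit therefore rests partly on its own values and is no separate support. When any of the other 5 arrays was left out instead, Igfbp5 was not called.

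**Figure D2:**
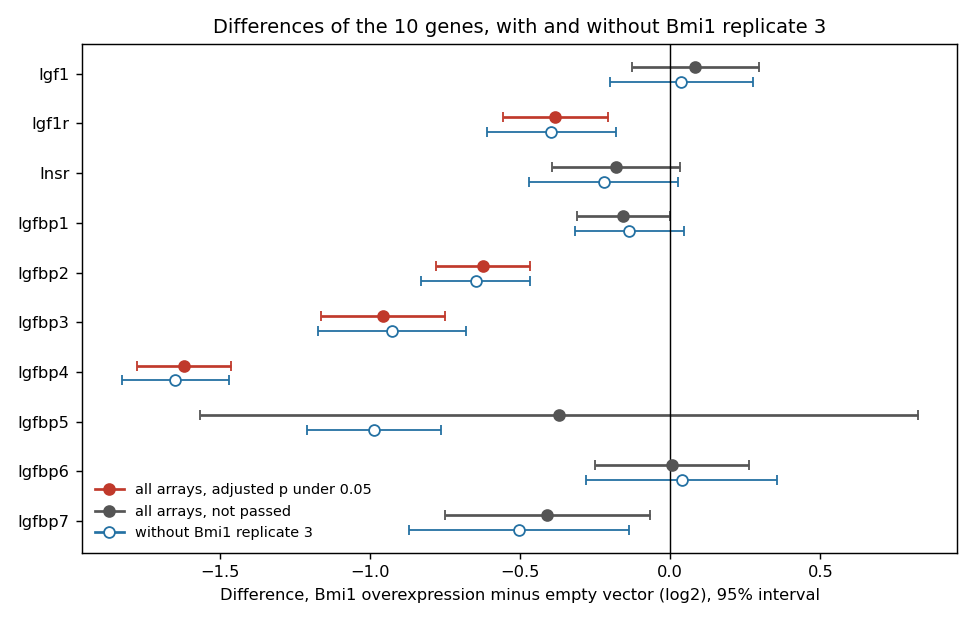
Log2 differences with 95% confidence intervals (x axis) of the 10 genes (y axis) over all arrays (filled, red where the adjusted p is under 0.05) and without Bmi1 replicate 3 (open, blue). Igfbp5 moves from -0.37 with a wide interval to -0.99 with a narrow one, while Igfbp4 is at -1.62 and -1.65.

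Igfbp5 had rank 5 of 19938 genes by how far Bmi1 replicate 3 exceeded the other Bmi1 arrays, with 1.82 on the log2 scale above the higher of them. Before it came Vegfa (2.37), Bnip3 (2.34), Pfkl (2.10) and Ndrg1 (1.89). Vegfa encodes an endothelial growth factor, Bnip3 a mitochondrial protein of the Bcl2 family and Pfkl a phosphofructokinase of glycolysis. Pdk1, Slc2a1, Hk2 and Slc2a3 were also among the 20 genes, with excesses of 1.25 to 1.55. They encode a pyruvate dehydrogenase kinase, a hexokinase and a pair of glucose transporters, and they are known, like Vegfa, Bnip3 and Ndrg1, as genes induced when oxygen is low. Vegfa, for example, read 6.01 to 6.15 on the empty vector arrays, 6.25 and 6.28 on Bmi1 replicates 1 and 2, and 8.65 on Bmi1 replicate 3. The difference between this array and the others of its group was not tested, since it is 1 array, and its part in the value of Igfbp5 was not tested. None of the 20 genes passed the test over all arrays. Picking genes for 1 outlying array widens the spread within the Bmi1 group, which makes a call unlikely from the outset. At an unadjusted limma p under 0.05, 1 was lower and 4 higher, beside 11.9% and 10.8% of all genes.

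**Figure D3:**
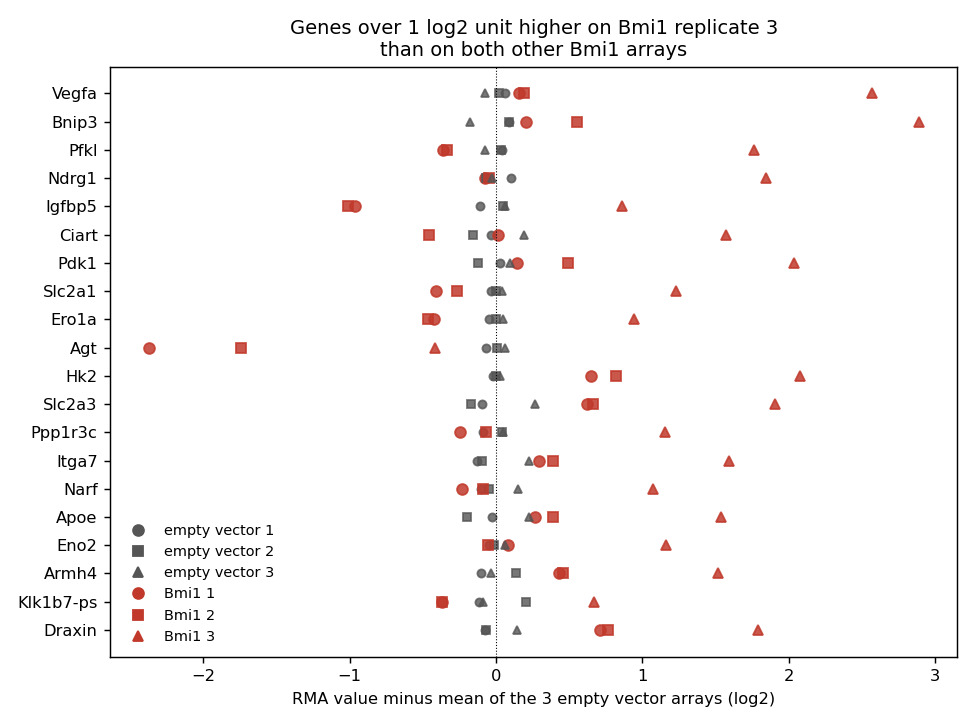
RMA values minus the mean of the 3 empty vector arrays (x axis, log2) for the 20 genes (y axis) that read over 1 unit higher on Bmi1 replicate 3 than on both other Bmi1 arrays, in grey for empty vector and red for Bmi1, with circle, square and triangle for replicates 1 to 3. The red triangles stand to the right of the other red points in every row by construction, by 1.82 for Igfbp5 and 2.37 for Vegfa.

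Igfbp1, Igfbp6 and Igfbp7 gave no call. Igfbp7, whose product is abundant around blood vessels, read 5.26, 5.34 and 5.64 with the empty vector and 5.01, 4.81 and 5.20 with Bmi1. Its groups did not overlap but lay only 0.06 apart, and the log2 difference of -0.41 did not pass (95% confidence interval -0.75 to -0.07, limma adjusted p = 0.18). Igfbp1, which in the liver is induced by fasting and repressed by insulin, read 3.89 to 3.96 with the empty vector and 3.73 to 3.81 with Bmi1. Its log2 difference was -0.16 (95% confidence interval -0.31 to -0.0024, limma adjusted p = 0.24). Igfbp6, whose product prefers IGF-II, read 2.85 to 3.17 and 2.94 to 3.12 in the empty vector and Bmi1 arrays, with a log2 difference of 0.01 (95% confidence interval -0.25 to 0.26). Its sign turned after median centring. All values of Igfbp1 and Igfbp6 lay below the array medians.

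Some of the genes lie side by side in the genome. Igfbp2 and Igfbp5 are neighbours on chromosome 1, and Igfbp1 and Igfbp3 on chromosome 11, with no other RefSeq gene between them and with the genes of each pair on opposite strands. Within the Igfbp1 and Igfbp3 pair, Igfbp3 fell by 0.96 whereas Igfbp1 had a log2 difference of -0.16. Within the Igfbp2 and Igfbp5 pair, Igfbp2 fell by 0.62 on a narrow spread whereas Igfbp5 differed between the Bmi1 arrays.

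The rest of the pathway was read from 6 lists with 90 genes, of which 80 had a probe set of their own. Of these 80, 8 fell, none rose and 72 did not pass, where 4.37% of all genes fell and 2.98% rose. The same shares stand beside the counts of the single lists below. The median log2 difference of the 80 genes was -0.0020. At an unadjusted limma p under 0.05, 18 of the 80 were lower and 11 higher, beside the same 11.9% and 10.8% of all genes. The other ligands, receptors and carriers gave no call among 6 genes, and 1 was higher at an unadjusted limma p under 0.05. Igf2, the gene of IGF-II, read 4.28 ± 0.15 in controls and 4.33 ± 0.16 in Bmi1 samples (SD, n = 3 each). Igf2r, the receptor that clears IGF-II, read 6.40 ± 0.21 and 6.55 ± 0.13 (SD, n = 3 each). Insrr, the insulin receptor-related receptor, had a log2 difference of 0.18 (95% confidence interval -0.03 to 0.39).
Of 7 genes for proteases of IGF-binding proteins and their inhibitors, 2 fell. Adam12, a metalloprotease that can cleave IGFBP-3 and IGFBP-5, went from 9.16 ± 0.13 to 8.09 ± 0.10 (SD, n = 3 each), a change of -1.07 ± 0.09 (log2 scale, SE, limma adjusted p = 0.0024). Stc1, which encodes stanniocalcin-1, an inhibitor of PAPP-A, went from 6.03 ± 0.07 to 5.30 ± 0.09 (SD, n = 3 each), at a limma adjusted p of 0.0051. For both genes the groups did not overlap. Pappa itself was dim and had a log2 difference of -0.03. Htra1, a serine protease that acts on several IGFBPs, lay higher on every Bmi1 array, with a log2 difference of 0.35 without a call (limma adjusted p = 0.13).
Inside the cell, 1 of 17 adaptor and feedback genes fell. This was Shc1, the adaptor that links the receptors to RAS, with a log2 difference of -0.64 (limma adjusted p = 0.011). The receptor substrates Irs1 and Irs2 were not called, at log2 differences of -0.07 and -0.21. Socs2, a feedback inhibitor of growth hormone signalling, was measured by probe sets that both read higher with Bmi1 but differed in the call. The one with the higher mean had a log2 difference of 0.59 without a call (limma adjusted p = 0.088), and the other 0.83, which passed (limma adjusted p = 0.023). Of 27 genes of the PI3K, AKT, FOXO and mTOR branch, Rptor and Rictor, the defining subunits of both mTOR complexes, fell with log2 differences of -0.82 and -0.33 (limma adjusted p = 0.0042 and 0.047). Of 5 genes of the RAS and MAP kinase branch, Map2k1 and Braf, kinases of the cascade, fell with log2 differences of -1.01 and -0.75 (limma adjusted p = 8.3e-04 and 0.022). Of 18 FOXO target genes, Bcl6 fell by 0.36 (limma adjusted p = 0.041). Rictor and Bcl6 lost their calls in every fit that omitted 1 array, and Braf in 4 of 6 such fits. These were the fits without empty vector replicate 2 or 3 and without Bmi1 replicate 1 or 3 (limma adjusted p up to 0.084). With single arrays left out, 5 to 7 of the 80 genes fell and none rose, beside 1.81% to 2.31% of all probe sets that fell.

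**Figure D4:**
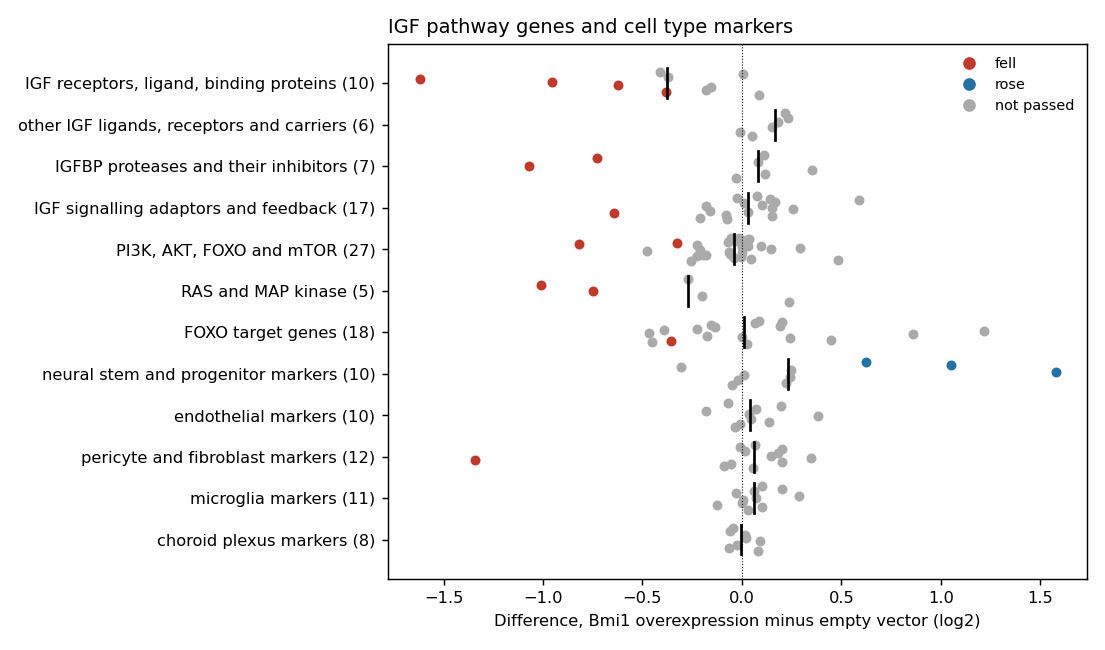
Log2 differences, Bmi1 overexpression minus empty vector (x axis), of each measured gene in the IGF pathway lists and cell type marker lists (y axis, number of genes in brackets), red where the gene fell, blue where it rose and grey where it did not pass, with a black bar at the list median. Of the 10 IGF receptor, ligand and binding protein genes 4 are red, and of the 80 other pathway genes 8 are, where 4.37% of all genes fell.

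Other cells express IGF genes, among them endothelial cells (Igfbp7), pericytes and fibroblasts (Igfbp4 and Igfbp5) and microglia (Igf1). None of 10 endothelial, 11 microglia and 8 choroid plexus markers passed the test. At an unadjusted limma p under 0.05 the numbers were 1, 0 and 0, beside 11.9% of all genes lower and 10.8% higher. Few genes of lists this short would be counted at the shares of all genes. The mean log2 value of the endothelial list was 3.92 to 3.97 on the empty vector arrays and 3.99 to 4.02 on the Bmi1 arrays, and that of the microglia list 3.33 to 3.45 and 3.43 to 3.48. For choroid plexus these ranges were 3.45 to 3.64 and 3.48 to 3.59. Above the array medians lay the means of 4 of the 10 endothelial markers (Cldn5, Egfl7, Kdr and Flt1, up to 4.89), 1 of the 11 microglia markers (Trem2, 4.66) and 1 of the 8 choroid plexus markers (Folr1, 4.51). The lowest means in these lists were 2.25, 2.48 and 2.70. Of 12 pericyte and fibroblast markers, Acta2, the smooth muscle actin gene, fell with a log2 difference of -1.34 (limma adjusted p = 0.023) and the other 11 did not pass. The list mean was 4.17 to 4.25 and 4.12 to 4.27. Of its 12 markers, 5 had means above the array medians (Acta2, Col1a1, Col1a2, Col3a1 and Tagln, from 4.58 to 8.35) and 7 below, down to 1.98 for Lum. The call of Acta2 was lost in 4 of 6 fits with 1 array left out, those without empty vector replicate 1 or 3 or Bmi1 replicate 1 or 2. Of 10 neural stem and progenitor markers, 3 rose (Prom1, Hes5 and Sox9) and none fell, beside 2.98% and 4.37% of all genes. At an unadjusted limma p under 0.05, 6 of these 10 were higher and 1, Slc1a3, was lower, with a log2 difference of -0.31. The list mean was 8.77 to 8.84 with the empty vector and 9.08 to 9.23 with Bmi1. The part of these shifts in the lower IGF gene values was not tested.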

How the data were processed

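Each of 6 neurosphere samples was hybridized to 1 Affymetrix Mouse Gene ST 1.0 array, starting from 300 ng of total RNA. The authors deposited 1 log2 value per probe set and array, and the submitters' processing notes name RMA and Affymetrix Expression Console, with versions not given in the sources used here. RMA corrects background, equalizes arrays by quantiles and compresses changes of dim probe sets. Gene names came from the annotation of the platform. Of 35557 probe sets it assigns 21789 to a single gene and 1621 to several. All 10 member genes were found by Entrez identifier in the RefSeq table of GRCm38.p6, which was used for neighbours. Promoter windows are from RefSeq (GRCm38.p6).

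Groups followed the sample titles. Differences were tested two-sided by lmFit and eBayes of limma 3.58.1 (R 4.3.3) without a filter, with p-values adjusted by Benjamini-Hochberg across the 35557 probe sets. The fit was tested on simulated data with independent normal noise. Such data hold no outlying array and no technical replicates, so that the test cannot speak to either. Precision is limited by having 3 arrays in each group. Named were all members, up to 4 called genes per pathway list, Igf2, Igf2r, Insrr, Bmi1, second probe sets of members, and the 3 genes most correlated with each of the 3 most changed members. Marker genes, Htra1, Pappa, Irs1, Irs2, Socs2 and the genes high on Bmi1 replicate 3 were named after their values were seen. The members and lists were chosen with earlier results of these data known. Alternatives were the methods' t-test, trended and robust priors, array weights, median centring, a filter at a mean of 5, other choices of probe sets, a minimum difference, a replicate block and the omission of single arrays. Matplotlib 3.10.9 drew the figures.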

Additional observations from a re-analysis of the deposited data

How the results depend on the processing

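Igfbp2, Igfbp3 and Igfbp4 fell under every alternative that tested them at an adjusted p under 0.05 without a minimum difference, with limma adjusted p up to 0.040, 0.032 and 0.011. The call of Igf1r was lost under the replicate block (limma adjusted p = 0.13) and with each array left out. The members that fell numbered 1, Igfbp4, by the methods' t-test at its thresholds and with a minimum log2 difference of 1, and 3 to 4 with 1 array left out. None rose in any setting. The log2 difference of Igfbp6 turned to -0.047 after median centring and ranged from -0.069 to 0.093 with 1 array left out. Igf1, Igfbp1 and Igfbp6 have means under 5 and could not be tested under that filter.
Of the 80 other pathway genes 8 fell. This number was 2 by the methods' t-test and with the minimum difference, where 0.562% and 0.931% of all probe sets fell. It was 14 with a trended prior (5.14% of probe sets) and 5 with the replicate block (1.53%). With 1 probe set per gene it was 13, beside 7.02% of 19938 genes. With the filter on dim probe sets it was 16, beside 12.4% of the 15149 probe sets kept. Dim genes among the 80, such as Igf2 and Pappa, were not tested under that filter. With 1 array left out the number was 5 to 7, beside 1.81% to 2.31% of probe sets. Rises numbered 1 with the trended prior and after averaging the probe sets of each gene, 4 with the filter and 3 with 1 probe set per gene. Over all probe sets, 1231 fell and 794 rose. The methods' t-test gave 200 and 100, the minimum difference 331 and 155 and the replicate block 544 and 306. Single arrays left out gave 642 to 820 and 332 to 455. With the filter 1880 fell and 1544 rose, out of the 15149 probe sets kept. Rises numbered 492 by the methods' t-test after Benjamini-Hochberg adjustment and 1364 with the trended prior. The causes of these shifts were not tested.
Same-numbered samples of both groups did not deviate together (correlations of -0.032 to 3.4e-05). Of the 3 empty vector samples, 0 correlated best with its own number. With so few samples this check cannot show whether same-numbered cultures were prepared together.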

Other observations

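Genes with the most similar values over the 6 arrays were looked up for Igfbp4, Igfbp3 and Igfbp2 among all 19938 genes. For Igfbp4 they were Gm10561, Mxd4 and Map2k1, with Pearson correlations of 1.000, 0.999 and 0.999, and Map2k1 is also a gene of the RAS and MAP kinase list. For Igfbp3 they were Apln, Chst2 and Ephx1, each at 0.999. For Igfbp2 they were Abr, Peg3 and Fam185a, at 1.000, 0.999 and 0.999. The 6 arrays fall into 2 groups, and 864, 744 and 856 genes correlated with Igfbp4, Igfbp3 and Igfbp2 above 0.95. These correlations therefore include the difference between the groups. Among these genes, Apln, which encodes the peptide ligand apelin, had a log2 difference of -1.55 and Peg3, an imprinted gene, of -0.64.

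Of the 20 genes that stood high on Bmi1 replicate 3, Agt, which encodes angiotensinogen, resembled Igfbp5 in part. It read 8.45, 8.53 and 8.58 with the empty vector and 6.15, 6.77 and 8.10 with Bmi1. Without Bmi1 replicate 3, 3 of the 20 genes fell and 2 rose, where 820 of 35557 probe sets fell and 455 rose. Apoe read 8.47 to 8.90 with the empty vector, 8.94 and 9.06 on Bmi1 replicates 1 and 2, and 10.21 on Bmi1 replicate 3. These genes were picked for their values on that array, and the excess was not tested.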
